A study of Homo sapiens with 12 samples.

Results

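The nuclear hormone receptors described here are 8 genes, ESR1, PGR, NR3C1, VDR, RARA, THRA, NR2F2 and ESRRA, among the 57820 genes counted in each library. They were taken from a named list and not by a cut-off on their values, but with earlier results of these data known. Gene identifiers were matched to symbols. All 8 were found and all 8 passed the filter on low counts in every comparison. The RNA came from T47D-MTVL cells, which are luminal breast cancer cells of the T47D line with 1 integrated MMTV-driven luciferase gene, and 12 libraries made 6 groups of 2. Poly(A) RNA was read from cells given either a control siRNA (siCtrl) or one against PADI2 (siPADI2), which encodes a deiminase that converts protein arginine to citrulline. Poly(A) RNA was also read from cells labelled as carrying HA-tagged RNA polymerase II (RNAP2) made resistant to alpha-amanitin, in its wild-type form (WT) or with the R1810A change. Both RNAP2 groups, the WT control included, had 24 hours after transfection and then 12 hours in alpha-amanitin at 6 µg/ml, a toxin that blocks the polymerase of the cells themselves. RNA bound to chromatin was read after siCtrl and after siPADI2. All 6 groups were grown without phenol red in serum treated with charcoal, which removes most steroids, and no group was given the progestin R5020. The labels name no removal of the cells' own RNAP2 other than by the toxin, and they give no time between siRNA transfection and harvest.

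Nuclear receptors are transcription factors that bind DNA through paired zinc fingers and change their set of bound coactivators and corepressors when a small lipid-soluble ligand enters their ligand-binding domain. Steroid receptors are held by HSP90 chaperones until hormone arrives, whereas retinoid, thyroid and vitamin D receptors sit on DNA as partners of the RXR proteins. In luminal breast cancer cells the estrogen receptor drives proliferation genes and the gene of the progesterone receptor, which makes the latter a standard readout of estrogen action.

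The transcripts of ESR1 and PGR, encoding the estrogen receptor alpha and the progesterone receptor, hold short words in their 3′ untranslated regions (UTRs) that ranked lowest in an earlier scan of the siPADI2 poly(A) comparison. The sites are shown because the other 6 receptors hold neither word. The words came from the same libraries, so these sites lend no independent support to any change. They are given 5′ to 3′ from GENCODE 29 transcripts (GRCh38), with the word in capitals.
ESR1, chr6:152101145-152101165 (+): cttttgtATCCACAgtagaca
PGR, chr11:101036127-101036147 (-): ttaaattATCCACAgatagtc
PGR, chr11:101033543-101033563 (-): caattatATCCACAcagattt
PGR, chr11:101038818-101038838 (-): tatttcaTACCATGtaggtga
PGR, chr11:101038076-101038096 (-): atcttttTACCATGaaatttc
Both words were searched on the transcript strand only, and they do not overlap each other in these sites. ATCCACA stood in 9.89% of 18682 annotated 3′ UTRs and TACCATG in 8.4%. Among 3′ UTRs of at least 2000 bases, 36.4% held one or the other. The 3′ UTRs of PGR (9492 bases) and ESR1 (4308 bases) were the longest of the 8, and that of ESRRA (777 bases) was the shortest. A match is a description of the letters and not of a binding site.

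Library totals, in units of 1e6 counts, were 44.32 to 132.76 for poly(A) RNA and only 2.72 to 7.04 for chromatin RNA, so chromatin values are the less precise. Levels are given as counts per 1e6 (CPM) with TMM-scaled library sizes, set within the 4 libraries of each comparison. PADI2 RNA, which checks the siRNA label, was 24.0 and 22.6 CPM with siCtrl and 1.83 and 1.88 CPM with siPADI2 in poly(A) RNA. In chromatin RNA its levels were 34.9 and 32.5 CPM with siCtrl and 8.52 and 14.2 CPM with siPADI2. The libraries labelled R1810A also had low PADI2, 3.13 and 2.35 CPM, against 48.9 and 50.7 CPM in WT, although no siRNA is given for them. Their effects are therefore given as those of the libraries labelled R1810A. The R1810A change itself cannot be read from gene counts. All 11 luminal epithelial markers were above 1 CPM in every library, with FOXA1 and GATA3 among them, while 13 to 16 of 19 markers of basal, stromal, endothelial and immune cells were under 1 CPM in the poly(A) libraries. Of these 19, 1 to 5 were at 0 there. In contrast, COL1A1 stood at 36.9 to 99.1 CPM and ACTA2 at 4.00 to 22.4 CPM across the 12 libraries. The luminal markers summed to 12951 and 13977 CPM after siCtrl and to 8374 and 8882 CPM after siPADI2 in poly(A) RNA. In WT the sums were 12309 and 12765 CPM and in the libraries labelled R1810A 8728 and 9572 CPM. The most abundant in WT were KRT19, KRT8 and KRT18 (means 2829, 2482 and 1721 CPM). In the libraries labelled R1810A these stood at 1241, 1512 and 1236 CPM. Single markers went both ways (adjusted p under 0.05, edgeR's quasi-likelihood test). After siPADI2 5 were lower and 2 higher (median log2 fold change -0.18, and -0.0026 with total counts as library sizes). In the libraries labelled R1810A 5 were lower and 3 higher (median -0.12). The part of these lower sums in the receptor results was not tested. Fewer cells of a kind and less RNA per cell cannot be told apart in bulk RNA.

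The largest changes among the 8 receptors were those of the estrogen and progesterone receptor genes after siPADI2. ESR1 fell 3.02-fold and PGR 3.17-fold in poly(A) RNA, while VDR, THRA, ESRRA and NR3C1 rose by 1.21-fold to 1.61-fold and RARA fell 1.25-fold. Of the 8 receptors, 4 rose, 3 fell and NR2F2 did not pass the threshold (adjusted p under 0.05, edgeR's quasi-likelihood test with Benjamini-Hochberg adjustment). In this comparison 56.7% of all 18720 genes tested passed, 28.8% higher and 27.9% lower, so the number of receptors called does not set them apart. ESR1 and PGR lay among the 3.83% and 3.56% of genes with the most negative log2 fold changes. These 2 also passed a test against a fold of 1.5, which the other 6 did not. That test was passed by 1636 higher and 1896 lower genes of the 18720, so this number does not set the receptors apart either.

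ESR1 (ENSG00000091831.17, hg19 chromosome 6, 151977826 to 152450754, plus strand) stood at 212 and 213 CPM in the siCtrl poly(A) libraries and at 66.7 and 74.1 CPM after siPADI2. The groups were far apart, and the 2 libraries of each lay close together. The log2 fold change was -1.60 (SE 0.09, adjusted p = 5.1e-19). PGR (ENSG00000082175.10, chromosome 11, 100900355 to 101001255, minus strand) stood at 327 and 333 CPM against 94.3 and 114 CPM, again with no overlap. Its log2 fold change was -1.66 (SE 0.09, adjusted p = 3.4e-18). Per kilobase of exon, PGR went from 21.6 to 6.81 CPM and ESR1 from 15.6 to 5.16 CPM. After siCtrl only VDR was above PGR on that scale, and after siPADI2 only NR3C1 was below this pair.

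**Figure D1:**
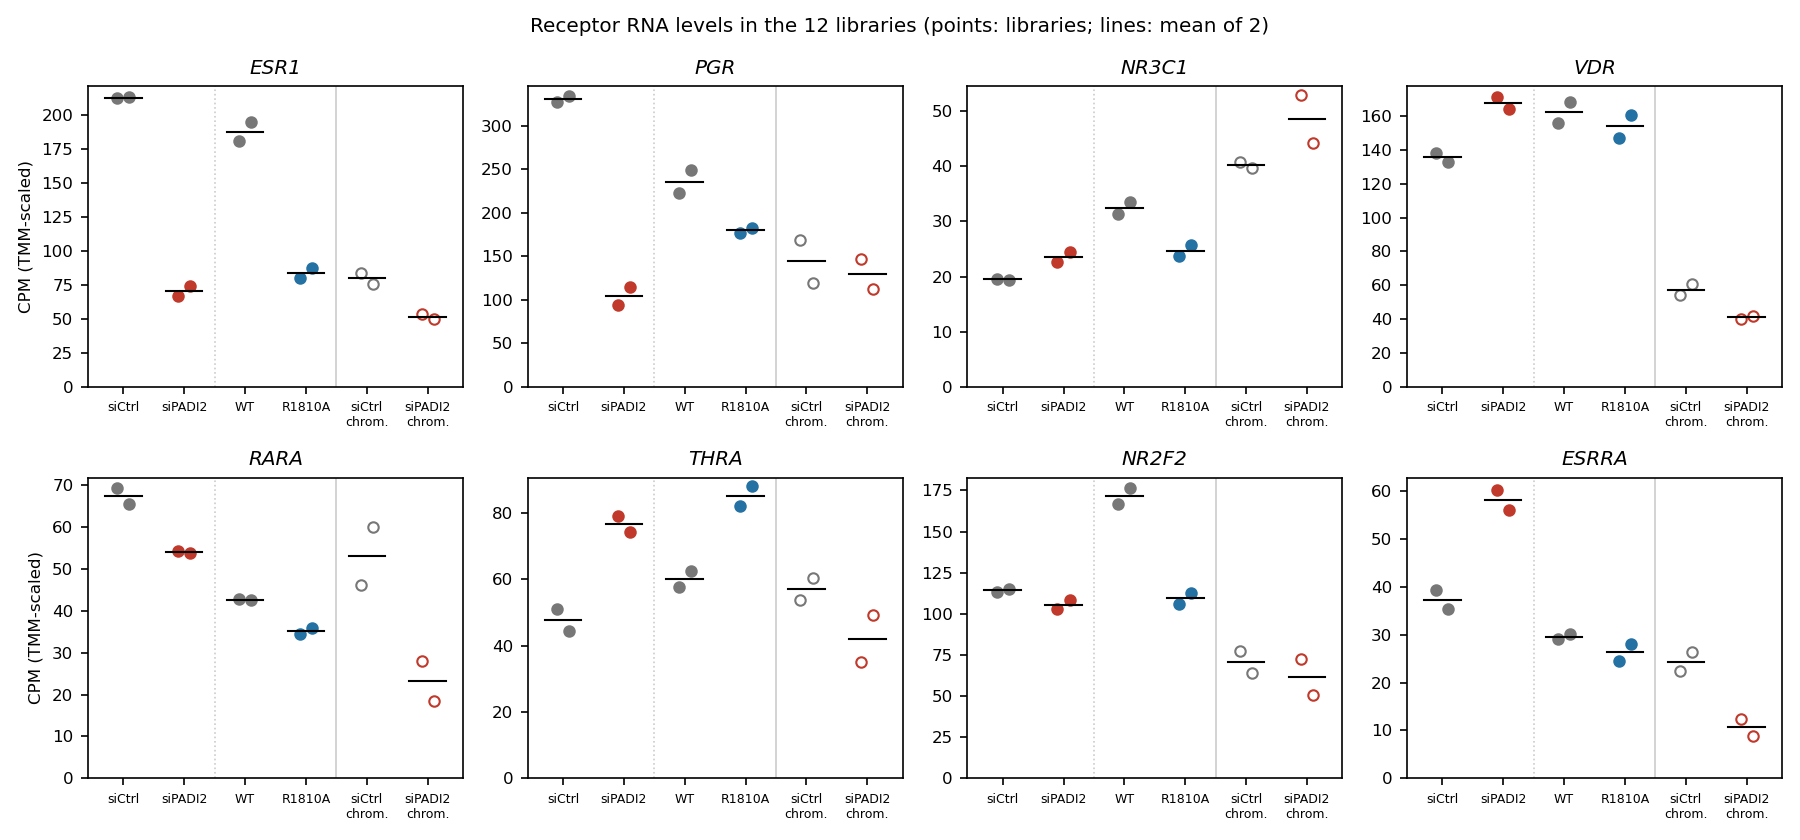
RNA level (CPM, linear axis from 0) of each of the 8 receptors in the 12 libraries, with filled points for poly(A) RNA, open points for chromatin RNA and lines for the mean of 2 libraries. Scaling was done within each pair of groups, so levels are compared within a pair: ESR1 and PGR fell after siPADI2 in poly(A) RNA, whereas THRA and ESRRA rose.

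The glucocorticoid receptor and the receptors of vitamin D, retinoic acid and thyroid hormone moved less. NR3C1 (ENSG00000113580.10, chromosome 5, 142657496 to 142815077, minus strand), the receptor for cortisol, was the least abundant per kilobase, with 19.6 and 19.3 CPM in the control libraries and 22.6 and 24.4 CPM with siPADI2. Its log2 fold change was 0.27 (SE 0.10, adjusted p = 0.018). That call was lost with a correction for GC content (adjusted p = 0.054), without siCtrl poly(A) replicate 2 (adjusted p = 0.067) and without siPADI2 poly(A) replicate 2 (adjusted p = 0.18). VDR (ENSG00000111424.6, chromosome 12, 48235320 to 48336831, minus strand), which binds active vitamin D, stood at 138 and 133 CPM against 171 and 164 CPM, a log2 fold change of 0.31 (SE 0.08, adjusted p = 0.0016). VDR was the most abundant of the 8 per kilobase, at 23.9 CPM after siCtrl and 29.5 CPM after siPADI2.

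RARA (ENSG00000131759.13, chromosome 17, 38465444 to 38513094, plus strand), a retinoic acid receptor, stood at 69.2 and 65.5 CPM in the control libraries and at 54.2 and 53.7 CPM with siPADI2. Its log2 fold change was -0.32 (SE 0.08, adjusted p = 0.0013), and the call was lost when total counts were used as library sizes (-0.14, adjusted p = 0.16). THRA (ENSG00000126351.8, chromosome 17, 38214543 to 38250120, plus strand), a thyroid hormone receptor, rose from 51.1 and 44.4 CPM to 79.1 and 74.3 CPM. This was a log2 fold change of 0.69 (SE 0.09, adjusted p = 1.2e-08). The control libraries of THRA differed by more than those of ESR1, but both lay below both siPADI2 libraries.

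The 2 orphan receptors, for which no classical circulating hormone is known, differed from each other. ESRRA (ENSG00000173153.9, chromosome 11, 64073044 to 64084215, plus strand), a regulator of mitochondrial and energy genes, rose from 39.3 and 35.4 CPM to 60.3 and 56.1 CPM. Its log2 fold change was 0.64 (SE 0.09, adjusted p = 7.4e-08). NR2F2 (ENSG00000185551.8, chromosome 15, 96869167 to 96883492, plus strand), also called COUP-TFII, stood at 114 and 115 CPM against 103 and 108 CPM. Its groups did not overlap, yet the log2 fold change of -0.12 (SE 0.08) did not pass (adjusted p = 0.23), and its sign turned with total counts as library sizes (0.07). Groups did not overlap for all 8 receptors, and for 76.5% of all genes tested. Scaling by total counts moved the median log2 fold change of all genes from 0.0050 to 0.19 and the share of calls that were higher from 50.8% to 67%, which touches the small effects of RARA and NR2F2 and not the direction of the other 6.

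Some counts carry a limit from the annotation. ESRRA has the pseudogene copies ESRRAP1 and ESRRAP2 on chromosome 13, and reads that map to several places were not counted, so its level is uncertain. Exons of RARA, ESRRA and THRA overlap genes on the opposite strand (RARA-AS1 over 14.1%, TRMT112 over 9.37% and NR1D1 over 3.78% of exonic bases), and the libraries were counted by strand.

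The second poly(A) comparison set the libraries labelled R1810A against WT. PADI2 RNA was also lower in the former (log2 fold change -4.18), so the form of RNAP2 and the lower PADI2 cannot be told apart. ESR1 fell most of the 8, by 2.24-fold, while PGR fell 1.31-fold. NR2F2, which had not passed after siPADI2, fell 1.57-fold, NR3C1 and RARA fell by 1.32-fold and 1.21-fold, and THRA rose 1.42-fold. In all, 1 receptor rose, 5 fell, and VDR and ESRRA did not pass. In this comparison 46.9% of 19202 genes passed, 22.6% higher and 24.3% lower. A test against a fold of 1.5 kept ESR1 alone among the 8. It kept 1064 higher and 1040 lower genes of the 19202, so this number does not set the receptors apart.

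ESR1 stood at 181 and 195 CPM in WT and at 80.0 and 87.1 CPM in the libraries labelled R1810A, a log2 fold change of -1.17 (SE 0.07, adjusted p = 2.2e-08). PGR stood at 222 and 249 CPM against 177 and 182 CPM. Its log2 fold change was -0.39 (SE 0.07, adjusted p = 0.00042), and the groups did not overlap although the WT libraries differed from each other. NR3C1, at 31.4 and 33.6 CPM against 23.7 and 25.6 CPM, went down here (-0.40, SE 0.07, adjusted p = 0.00036). NR2F2 stood at 167 and 177 CPM in WT and at 106 and 113 CPM in the libraries labelled R1810A, a log2 fold change of -0.65 (SE 0.06, adjusted p = 2.3e-06).

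THRA rose in both poly(A) experiments. It stood at 57.7 and 62.6 CPM in WT and at 82.1 and 88.1 CPM in the libraries labelled R1810A (log2 fold change 0.50, SE 0.06, adjusted p = 2.7e-05). RARA stood at 42.8 and 42.5 CPM against 34.4 and 35.9 CPM (-0.28, SE 0.06, adjusted p = 0.0020). RARA is the other receptor besides THRA, ESR1 and PGR whose call had the same sign in both experiments. VDR stood at 156 and 168 CPM against 147 and 161 CPM, so its groups overlapped (-0.08, adjusted p = 0.39). ESRRA stood at 29.0 and 30.2 CPM against 24.6 and 28.1 CPM. Its log2 fold change of -0.17 missed the threshold (adjusted p = 0.075) but passed without R1810A poly(A) replicate 2 (-0.27, adjusted p = 0.015). Groups did not overlap for 7 of the 8 receptors and for 72.4% of all genes tested.

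**Figure D2:**
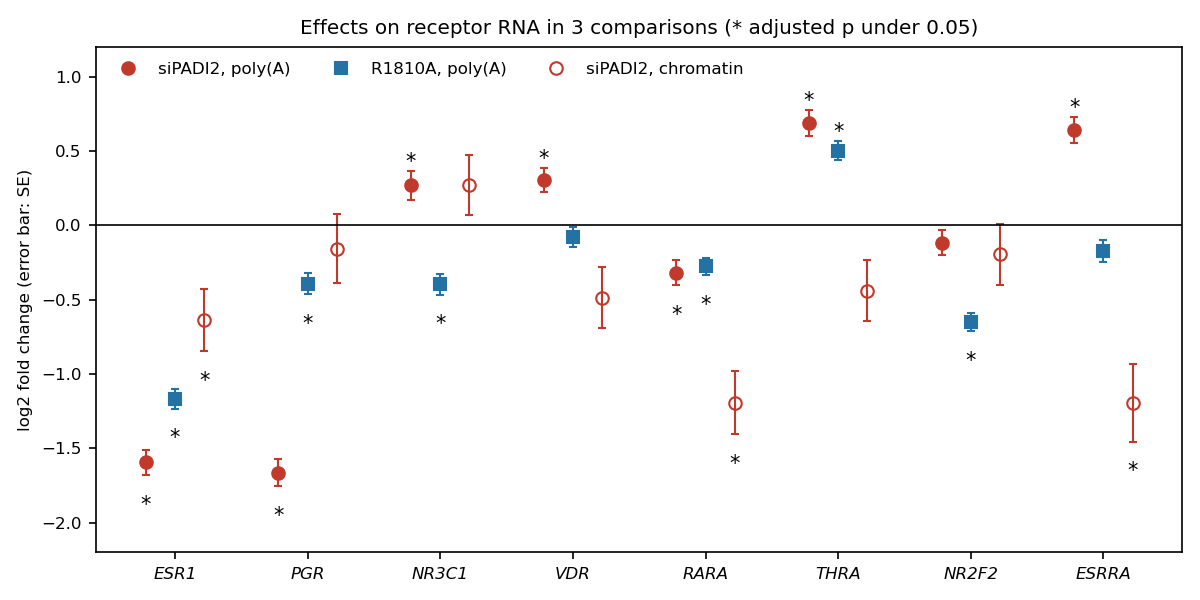
Log2 fold change with its SE for each receptor after siPADI2 in poly(A) RNA (filled circles), for R1810A against WT (squares) and after siPADI2 in chromatin RNA (open circles), with a star where the adjusted p is under 0.05. ESR1 is starred and below 0 in all 3, PGR only in the 2 poly(A) comparisons, and ESRRA lies above 0 in poly(A) RNA and at -1.19 in chromatin RNA after siPADI2.

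The 2 poly(A) effects share no library, and their difference was tested in a joint fit of the 8 libraries (edgeR's quasi-likelihood test, interaction contrast). It passed for 6 of the 8 receptors, and for 26.1% of 19884 genes, 11.8% higher and 14.3% lower. PGR differed most, with an siPADI2 effect that was lower than the R1810A effect by -1.30 on the log2 scale (SE 0.12, adjusted p = 8.8e-06). ESR1 was also lower, by a smaller difference of -0.45 (SE 0.10, adjusted p = 0.0042). ESRRA (0.79), NR3C1 (0.64), NR2F2 (0.51) and VDR (0.36) had the higher effect after siPADI2. The VDR difference was lost without WT poly(A) replicate 2 (adjusted p = 0.069) or R1810A poly(A) replicate 1 (adjusted p = 0.061). RARA (-0.07) and THRA (0.16) did not pass. With total counts as library sizes the share of all calls in this contrast that were higher went from 45.1% to 68%, and the RARA difference turned to 0.08.

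When the 4 poly(A) groups were put on 1 scale, ESR1 and PGR had the same order of levels. It ran from siCtrl through WT and the libraries labelled R1810A down to siPADI2. For ESR1 these means were 212, 185, 84.7 and 70.8 CPM (SD 0.74, 12.8, 3.17 and 5.03, n = 2 each), and no neighbours in the order overlapped. For PGR they were 329, 232, 182 and 105 CPM (SD 4.91, 22.4, 0.55 and 13.7, n = 2 each). THRA ran from the libraries labelled R1810A (86.3 CPM) and siPADI2 (77.2 CPM) down to WT (59.3 CPM) and siCtrl (47.6 CPM). NR3C1 and NR2F2 were highest in WT, with 32.0 and 169 CPM. RARA was lowest in the libraries labelled R1810A (35.7 CPM) and highest in siCtrl (67.1 CPM). VDR could not be ordered beyond siCtrl, its lowest group (135 CPM), because the other 3 groups overlapped. The 2 controls thus differed for several receptors before any effect was taken, and experiment, alpha-amanitin and transfection cannot be told apart in that difference. With total counts as library sizes the order changed for NR2F2 and for no other receptor.

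Across the 8 poly(A) libraries, ESR1 and PGR varied together (Pearson r of log2(CPM + 1) 0.911), and THRA ran opposite to ESR1 (r = -0.900). NR3C1 and NR2F2 went together with r = 0.802. These are descriptions over libraries that fall into 4 groups of 2, so each r reflects mainly the 4 group levels. Among 9451 protein-coding genes with a mean of at least 10 CPM, the patterns most like that of ESR1 were CXCL16 and CALCOCO2 (both r = 0.998) and CAP2 (r = 0.997). For PGR they were FBXW2, FADS1 and ARSB (r = 0.993, 0.993 and 0.992). For THRA they were VPS26B, SEC13 and SMARCA2, for NR3C1 CDH3, DCBLD2 and CDC42BPA, and for NR2F2 MSH6, MMS22L and LSM14A. For VDR the leading genes were UIMC1, DHX8 and CLTB, for RARA DHX58, TRMT61A and LGALS3BP, and for ESRRA TTLL12, SLC7A11 and FKBPL.

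The rest of the nuclear receptor family was followed through 39 matched genes of 40 listed, of which 29 were tested after siPADI2 in poly(A) RNA. Of these 14 rose and 8 fell, with a median log2 fold change of 0.31. Among all genes tested 56.7% passed after siPADI2 and 46.9% in the libraries labelled R1810A. For protein-coding genes with a mean of at least 10 CPM the shares were 65.8% and 56.3%. The counts of this list and of the poly(A) lists below are to be read beside these shares. RARB, a retinoic acid receptor that is itself a classical retinoic acid target, rose from 1.10 and 1.63 CPM to 15.2 and 11.8 CPM (3.22, SE 0.16, adjusted p = 4.3e-15). ESR2, the second estrogen receptor, passed at levels of 0.072 and 0.032 CPM against 0.15 and 0.26 CPM, near the limit of detection. In the libraries labelled R1810A, 10 of 28 tested family genes rose and 4 fell (median 0.15). RARB rose there from 1.94 and 1.78 CPM to 7.99 and 8.66 CPM (2.16, SE 0.11). RXRG and the immediate-early receptors NR4A3 and NR4A2 also rose, at levels under 3 CPM.

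**Figure D3:**
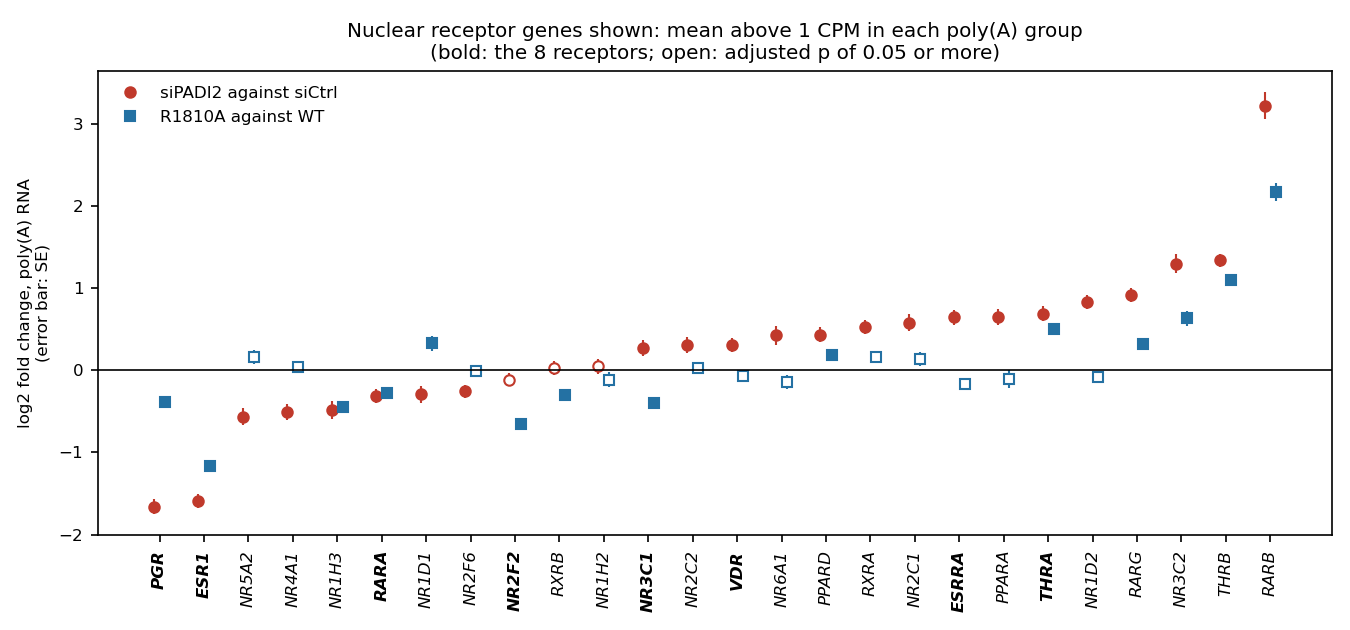
Log2 fold change with SE in poly(A) RNA for 26 nuclear receptor genes with a mean above 1 CPM in each poly(A) group, in order of the siPADI2 effect, with the 8 receptors in bold and filled points where the adjusted p is under 0.05. Among the genes plotted, PGR and ESR1 lie lowest after siPADI2, and RARB lies highest in both comparisons.

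Of 23 coregulators, the proteins that receptors recruit, 6 rose and 8 fell after siPADI2, and the median of -0.02 turned to 0.17 with total counts as library sizes. SRARP, a steroid receptor-associated protein, fell from 103 and 102 CPM to 2.39 and 1.77 CPM (-5.63, SE 0.12, adjusted p = 4.9e-29). PPARGC1A and PPARGC1B, coactivators that work with ESRRA on mitochondrial genes, went opposite ways. PPARGC1A fell from 7.94 and 8.36 CPM to 3.86 and 3.98 CPM (-1.06) and PPARGC1B rose from 5.13 and 4.30 CPM to 13.8 and 17.3 CPM (1.75). In the libraries labelled R1810A, 1 coregulator rose and 11 fell (median -0.14). The rise was PPARGC1B (0.72), and SRARP (-2.49) and PPARGC1A (-0.82) were among the falls. Counts of rising coregulators in that comparison moved with the processing, to 4 with total counts or a GC correction and to 2 without WT poly(A) replicate 2.

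Of 12 chaperones and cochaperones of the HSP90 system that holds steroid receptors, 4 rose and 1 fell after siPADI2, and 3 rose and 1 fell in the libraries labelled R1810A. The median after siPADI2 was -0.08 and turned to 0.10 with total counts. FKBP5, a cochaperone whose own gene is induced by glucocorticoids and progestins, was the one that fell in both. It went from 95.9 and 101 CPM to 67.0 and 70.0 CPM after siPADI2 (-0.53, SE 0.08, adjusted p = 8.4e-07) and from 95.5 and 98.5 CPM to 62.0 and 67.6 CPM in the libraries labelled R1810A (-0.58). The number that fell after siPADI2 was 2 with DESeq2 and 3 with GC correction, and the number that rose in the libraries labelled R1810A was 6 without R1810A poly(A) replicate 1.

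Of 18 tested genes that make, break down or carry steroids, 10 fell and 6 rose after siPADI2 (median -0.34). SERPINA6, which encodes the corticosteroid-binding globulin, fell from 1808 and 1865 CPM to 141 and 152 CPM (-3.65, SE 0.10, adjusted p = 9.7e-29). HSD17B1, the enzyme that makes estradiol from estrone, fell from 64.4 and 52.6 CPM to 10.6 and 8.94 CPM (-2.58). AKR1C1 and AKR1C2, which inactivate progesterone and other ketosteroids, rose but stayed near 1 CPM. These genes are near-identical, and reads that map to several places were not counted, so their levels are uncertain. In the libraries labelled R1810A the counts were 9 higher and 6 lower (median 0.26), with HSD17B1 at -1.39. Genes of retinoid, vitamin D and thyroid hormone metabolism gave 2 higher and 9 lower of 18 after siPADI2, with DHRS3, a retinal reductase, at -1.94 from 44.5 and 40.7 CPM to 11.7 and 10.5 CPM. In the libraries labelled R1810A they gave 7 higher and 7 lower of 19, led by CRYM, a thyroid hormone-binding protein, which rose from 5.48 and 5.41 CPM to 32.8 and 36.5 CPM (2.67). Of the latter falls 4 were left without WT poly(A) replicate 1, and after siPADI2 the rises numbered 5 with total counts and 1 without siCtrl poly(A) replicate 2.

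Target genes of the receptors were read as lists chosen with earlier results of these libraries known, so their direction is not independent evidence. Of 34 estrogen targets tested, 23 fell and 3 rose after siPADI2, with a median of -0.79 against 0.0050 for all genes. PRLR, the prolactin receptor, fell from 3595 and 3472 CPM to 511 and 576 CPM (-2.70, SE 0.10), and CCND1, which encodes cyclin D1, fell from 132 and 123 CPM to 21.3 and 22.5 CPM (-2.54, SE 0.09). In the libraries labelled R1810A, 17 fell and 6 rose (median -0.33), among them STC2 (-2.31), PRLR (-1.70) and CCND1 (-1.60). The number of estrogen targets that rose after siPADI2 was 5 with total counts or without siCtrl poly(A) replicate 2. TFF1, a widely used estrogen marker, stood at 0.22 and 0.26 CPM even after siCtrl in this hormone-poor medium.

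Of 22 progestin and glucocorticoid targets, 13 fell and 4 rose after siPADI2 (median -0.31), and 11 fell and 4 rose in the libraries labelled R1810A (median -0.16). The metallothionein MT2A fell from 53.1 and 47.9 CPM to 5.86 and 4.91 CPM after siPADI2 (-3.23), and TSC22D3, which encodes the glucocorticoid-induced leucine zipper, fell from 99.9 and 102 CPM to 38.5 and 36.7 CPM (-1.42). Of 15 retinoid, vitamin D and thyroid hormone targets, 9 fell and 1 rose after siPADI2 (median -0.49), and the 1 that rose was RARB. A second one passed as higher with total counts and when either siCtrl poly(A) library was left out. Of 15 targets of ESRRA, 7 rose and 5 fell (median 0.14). CYCS, the cytochrome c of mitochondrial electron transport, rose (0.85). Genes of fatty acid oxidation went both ways, with ACADM, an acyl-CoA dehydrogenase, higher (0.78) and ETFA (-1.05) and CPT1A (-0.65) lower. The number of ESRRA targets that rose was 4 without siPADI2 poly(A) replicate 1, and the number that fell was 2 with total counts and 3 without siCtrl poly(A) replicate 1.

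RNA bound to chromatin, which is enriched for RNA still being made, was read after the same siRNAs. ESR1, RARA and ESRRA fell, by 1.55-fold, 2.29-fold and 2.29-fold after siPADI2, and no receptor rose. The other 5 did not pass, in a comparison in which 32.4% of 33879 genes passed, 12.2% higher and 20.1% lower. The 4140 genes called higher became 1168 to 2350, and the 6822 called lower 3678 to 5641, when any 1 of the 4 libraries was left out. Groups did not overlap for 6 of the 8 receptors and for 66.6% of genes.

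ESR1 stood at 83.8 and 76.0 CPM after siCtrl and at 53.2 and 49.6 CPM after siPADI2 in chromatin RNA, with a log2 fold change of -0.64 (SE 0.21, adjusted p = 0.011). RARA stood at 46.2 and 59.9 CPM against 28.0 and 18.4 CPM (-1.19, SE 0.21, adjusted p = 7.2e-07), and ESRRA at 22.4 and 26.4 CPM against 12.4 and 8.86 CPM (-1.19, SE 0.26, adjusted p = 6.4e-05). PGR stood at 169 and 120 CPM against 147 and 112 CPM, so its groups overlapped (-0.16, adjusted p = 0.64). The ESR1 call was lost in 6 of 12 alternatives, and its log2 fold change ran from -0.87 to -0.52 over the 12. Among the losses were the fits without siCtrl chromatin replicate 1, siPADI2 chromatin replicate 1 or siPADI2 chromatin replicate 2. Another was the fit with total counts as library sizes (adjusted p = 0.050). VDR (54.1 and 60.5 against 40.1 and 41.8 CPM, adjusted p = 0.053) and THRA (53.8 and 60.5 against 35.1 and 49.2 CPM, adjusted p = 0.084) lay lower without passing. NR3C1 (0.27) and NR2F2 (-0.20) did not pass.

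The chromatin effects moved with the GC content of transcripts across all genes. The median log2 fold change was 0.42 for 12385 genes under 45% GC, -0.03 for 11483 genes between 45% and 55%, and -0.92 for 8360 genes over 55%, of which 58.3% were called lower. RARA (63.0% GC) and ESRRA (63.2% GC) lay only 0.13 below the median of -1.06 of the 2782 genes with 60% to 65% GC. ESR1 (46.1% GC) lay 0.80 below the median of 0.16 for 6237 genes with 45% to 50% GC, and PGR (41.4% GC) lay 0.55 below the median for its range, 0.39. THRA (60.0% GC) lay 0.36 above its range's median of -0.80.

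With the GC trend removed, RARA and ESRRA both came to -0.22 and were no longer called (adjusted p = 0.48 and 0.57). ESR1 came to -0.87 (SE 0.19, adjusted p = 0.0025), PGR to -0.53 (adjusted p = 0.11), THRA to 0.45 (adjusted p = 0.11), VDR to -0.03, NR2F2 to -0.16 and NR3C1 to -0.13. The same trend was seen in protein-coding genes with no count in any poly(A) library. Those with over 55% GC (496 genes) had medians of 2.91 and 3.41 CPM per kilobase after siCtrl and of 1.15 and 1.13 after siPADI2. The receptors stood at 1.97 to 9.81 times the median of all 1667 such silent genes, of any GC content, in the same library. The lowest was ESRRA in siPADI2 chromatin replicate 2, which exceeded 77.9% of the silent genes. ESR1 exceeded 85.6% to 94.9% of them. Beside 2.91 and 3.41 for silent genes over 55% GC after siCtrl, RARA stood at 11.8 and 15.2 CPM per kilobase. ESRRA stood at 7.38 and 8.70 CPM per kilobase there. Markers of other cell types summed to 432 to 540 CPM in chromatin libraries with none at 0, against 63.3 to 83.0 CPM in the poly(A) libraries. With the trend taken from 856 silent genes alone, a setting chosen after seeing the data, ESR1 stood at -0.78 (adjusted p = 0.026) and RARA and ESRRA at 0.03 and 0.02, while THRA passed as higher (0.77, adjusted p = 0.024). What lies behind the trend was not tested.

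**Figure D4:**
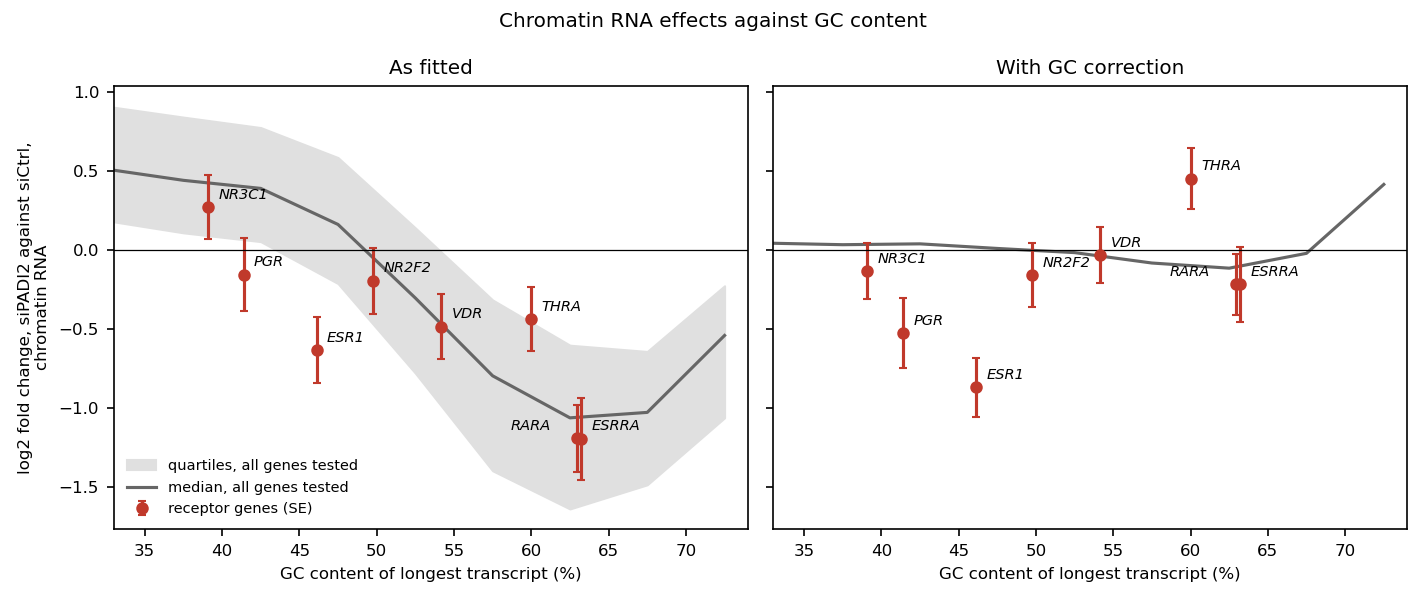
Log2 fold change after siPADI2 in chromatin RNA against the GC content of the longest transcript, as fitted (left) and with GC correction (right), with the median over all genes tested as a line, quartiles as a band (left) and the 8 receptors as points with SE. As fitted, RARA and ESRRA lie near the falling line, at -1.19, while ESR1 lies below it at -0.64, and after correction ESR1 is the lowest of the 8 at -0.87.

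Whether the siPADI2 effect differed between the fractions was tested in a joint fit of the 8 siRNA libraries. It passed for PGR (higher), THRA and ESRRA (both lower), and for 8.05% of 44615 genes, 1.71% higher and 6.34% lower. PGR had the higher effect in chromatin RNA (1.30, SE 0.38, adjusted p = 0.011), and the effects of THRA (-1.34, SE 0.38, adjusted p = 0.0082) and ESRRA (-2.05, SE 0.41, adjusted p = 4.5e-05) were lower there. ESR1 (0.76, adjusted p = 0.28), VDR (-0.998, adjusted p = 0.092) and RARA (-1.08, adjusted p = 0.060) did not pass in this fit, but ESR1 passed in 10, VDR in 11 and RARA in 9 of 14 alternatives. The PGR call was lost without siPADI2 poly(A) replicate 1 (adjusted p = 0.20) or replicate 2 (adjusted p = 0.056), and the THRA call likewise (adjusted p = 0.084 and 0.065). The joint fit tests many genes that only chromatin libraries detect, and with simulated counts it recovered only 5% of 2-fold differences. A fit restricted to genes tested in both fractions and corrected for GC content was chosen after seeing the data. There the differences were 1.40 for PGR (adjusted p = 3.9e-06), 0.93 for ESR1 (adjusted p = 6.1e-05) and -0.91 for ESRRA (adjusted p = 0.0013). They were -0.44 for VDR (adjusted p = 0.026), -0.37 for THRA (adjusted p = 0.082) and 0.045 for RARA (adjusted p = 0.87).

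Calls among family and target genes in chromatin RNA were fewer with GC correction, and so were calls among all 33879 genes tested. Over all genes, 4140 higher and 6822 lower calls became 2287 and 2870, so the drop is not particular to these lists. Of 39 other receptors 16 fell and 8 rose, and 6 fell and 3 rose with GC correction. Of 35 estrogen targets 19 fell and 1 rose, and 11 fell with GC correction. With the trend taken from silent genes alone, chosen after seeing the data, 5 estrogen targets fell and 2 rose. In that setting 2 other receptors fell and 4 rose, and over all genes 2014 were called lower and 3421 higher. With any 1 of the 4 chromatin libraries left out, the rises among other receptors numbered 1 to 3 and those among estrogen targets 0 to 2. SERPINA6 fell in this fraction too, from 132 and 116 CPM to 53.6 and 37.9 CPM (-1.44, SE 0.22).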

How the data were processed

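Poly(A) RNA and chromatin RNA of T47D-MTVL cells were sequenced in 12 libraries, grouped by their titles. The deposited values are raw counts of read pairs per gene. Trimming was by Trimmomatic and alignment by STAR, per the submitters' processing notes. For counting, the authors used, per the file headers, featureCounts 1.5.1 (poly(A)) and 1.4.6-p2 (chromatin), strand option 2 and GENCODE 19 genes on hg19, without counting multi-mapping reads, so chromatin values hold exonic reads.

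Symbols were matched by stable identifier to GENCODE 29 (52338 of 57820 genes), which also gave the GC content of each gene's longest transcript and the 3′ UTRs. The 4 libraries of a comparison were fitted separately from the rest with edgeR 4.0.16 in R 4.3.3 (TMM scaling, filterByExpr, robust quasi-likelihood F test, Benjamini-Hochberg adjustment over all genes tested, threshold 0.05). The SE is the size of the log2 fold change divided by the square root of F. Differences between effects were interaction contrasts over 8 libraries. The GC correction used offsets from a lowess trend per library.

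Whether the 2 libraries of each group are separate cultures is not in the labels, so the p-values rest on a spread that may be technical. The members, the lists and the rule for named genes (all 8 receptors and up to 4 passing genes per list with the largest change, plus 10 genes with a known role beside a receptor) were chosen with earlier results of these data known. List counts are descriptions and no list was tested. On simulated counts the fits recovered 94% (siPADI2, poly(A)), 95% (R1810A), 63% (siPADI2, chromatin) and 92% (siPADI2 minus R1810A) of 2-fold changes. Alternatives were RLE factors, total counts, DESeq2 1.42.0, no filter, a test against a fold of 1.5, GC correction, a joint fit, a replicate block and each library left out. Protein sequences were not used here, and some listed genes are counted in their lists but not reported by name or plotted here.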

Additional observations from a re-analysis of the deposited data

Results flagged for a closer look

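These differences between 2 effects of the same kind passed the test of the difference itself (interaction contrast, edgeR's quasi-likelihood test, adjusted p under 0.05). Between the siPADI2 and R1810A effects in poly(A) RNA, the difference was -1.30 for PGR, -0.45 for ESR1, 0.79 for ESRRA, 0.64 for NR3C1, 0.51 for NR2F2 and 0.36 for VDR. For NR3C1 the effects had opposite signs, each past its own threshold. Between the siPADI2 effects in chromatin and poly(A) RNA, the difference was 1.30 for PGR, -1.34 for THRA and -2.05 for ESRRA. With only genes tested in both fractions, the latter 2 came to -1.01 for THRA and -1.73 for ESRRA, and with GC correction added to -0.37 and -0.91. With 2 libraries per group no single library could be examined as standing apart.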

How the results depend on the processing

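Over all alternatives, the direction and the side of the threshold held for 94 of 104 receptor values after siPADI2 in poly(A) RNA, 95 of 104 for R1810A, 75 of 96 after siPADI2 in chromatin RNA, 108 of 112 for siPADI2 minus R1810A and 64 of 112 for chromatin minus poly(A) RNA. ESR1 and PGR after siPADI2 in poly(A) RNA, and ESR1 in the libraries labelled R1810A, passed under every alternative run. Sign changes, with the cause not tested, were as follows. With total counts as library sizes NR2F2 after siPADI2 came to 0.068 and the RARA difference between siPADI2 and R1810A to 0.077, and without a filter the latter came to 0.018. In chromatin RNA, GC correction gave -0.13 for NR3C1 and 0.45 for THRA. The trend of silent genes gave -0.32 for NR3C1, 0.29 for VDR, 0.028 for RARA, 0.77 for THRA, 0.11 for NR2F2 and 0.022 for ESRRA. With 1 library left out PGR ran from -0.42 to 0.11 and NR2F2 from -0.49 to 0.047. For chromatin minus poly(A) RNA, NR3C1 came to 0.18 with RLE factors, 0.18 with DESeq2 and 0.11 with only genes tested in both fractions, and NR2F2 to 0.098, 0.094 and 0.026. With GC correction added RARA came to 0.045 and NR2F2 to 0.0045. With 1 library left out NR3C1 ran from -0.45 to 0.16 and NR2F2 from -0.56 to 0.19.

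The number of all genes called moved by over 1.5 times as follows. A test against a fold of 1.5 left 1636 higher and 1896 lower genes after siPADI2 in poly(A) RNA (5395 and 5225 as reported), 1064 and 1040 for R1810A (4348 and 4662) and 1028 and 3530 in chromatin RNA (4140 and 6822). In chromatin RNA DESeq2 called 537 higher and 3169 lower, GC correction 2287 and 2870, the joint fit 2085 higher, and the silent-gene trend 2014 lower. With 1 chromatin library left out the counts ran from 1168 to 2350 higher and from 3678 to 5641 lower. For siPADI2 minus R1810A total counts gave 3870 higher and 1822 lower (2343 and 2853 as reported). For chromatin minus poly(A) RNA the 763 higher calls became 3002 with RLE factors, 1666 with total counts, 3511 with DESeq2, 2792 with only genes tested in both fractions and 3278 with GC correction added. With 1 library left out they ran from 420 to 2266 higher and from 1783 to 6176 lower, against 2829.

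The replicate numbers of the poly(A) groups are shared between siCtrl and siPADI2 and between WT and R1810A, but the labels do not say that they pair the libraries. With a replicate block ESRRA passed in the R1810A comparison (-0.17, adjusted p = 0.00063, and -0.13, adjusted p = 0.0039, with GC correction added), and the block changed no other call among the 8 receptors in poly(A) RNA. Among the gene lists in the R1810A comparison, the block moved falling family receptors from 4 to 9 (7 with GC correction added), rising chaperones from 3 to 6 (7) and rising coregulators from 1 to 5 (6). After siPADI2 it moved falling chaperones from 1 to 3 and rising estrogen targets from 3 to 5. For the chromatin comparison, no paired analysis was possible because its groups share fewer than 2 replicate numbers. Depth limits the chromatin values, with 2.72 to 7.04 in units of 1e6 counts per library.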
